A study of Canis lupus familiaris with 6 samples.

Results

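The autophagy genes examined here are 38 genes of the machinery that builds, loads and regulates the autophagosome. They were taken by symbol from the gene-level table of a study of cold atmospheric microwave plasma (CAMP), and all 38 were found among its 35993 genes. All 38 also passed the filter on low counts that left 14708 genes for testing. The question put to them was whether the transcripts of the initiation, conjugation and receptor genes differ between keratinocytes treated directly with CAMP (dCAMP) and keratinocytes treated with gas alone. RNA-seq was performed on CPEK cells, a commercial canine epidermal keratinocyte line of wild type genotype. The gas control group received the gas for 30 s without plasma, and the dCAMP group received CAMP for 30 s. Both groups were left for 15 min, given fresh complete medium and collected 24 h later, with 3 libraries in each group. Whether the 3 libraries of a group came from separate cultures on separate days is not given in the labels, so the p-values measure the spread between these libraries, which may be technical.

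Autophagy is the route by which a cell encloses cytoplasm, damaged organelles or protein aggregates in a double membrane and delivers them to the lysosome. A kinase complex around ULK1 or ULK2 starts the process, a lipid kinase complex around PIK3C3 marks the membrane with phosphatidylinositol 3-phosphate, and lipid carriers supply the growing membrane. A pair of ubiquitin-like conjugation systems then attaches proteins of the ATG8 family to the membrane, where receptors such as SQSTM1 dock their cargo. In the epidermis, keratinocytes use autophagy in stress responses and in the removal of organelles during cornification. Much of the control of the pathway acts on proteins, through phosphorylation and turnover, and transcript levels do not measure autophagic flux.

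Library totals ran from 43084921 to 54082634 gene counts, and the smallest count of an autophagy gene was 131, for ATG4C in gas 1. The cells carried the markers of basal keratinocytes. The summed level of 12 keratinocyte markers was 50020 to 59800 CPM (TMM-scaled read counts relative to the library total) in the gas libraries and 46670 to 49580 CPM in the dCAMP libraries, and 1 marker, KRT1, was at 0 in all 6. KRT5 (21830 to 28160 CPM) and KRT14 (14650 to 20630 CPM) made up most of this sum. Both, and SFN, were lower in every dCAMP library than in any gas library. CDH1, ITGA6, DSG3 and PERP went the other way, with DSG3 at 524.9 to 795.5 CPM in gas and 920.6 to 951.6 CPM in dCAMP. KRT15, TP63, ITGB4 and KRT10 (21.41 to 34.26 CPM) overlapped between the groups. The 8 fibroblast markers summed to 6.51 to 7.10 CPM over the 6 libraries with 3 of them at 0, and the 5 leukocyte markers to 1.28 to 3.29 CPM with 3 at 0. The 6 melanocyte markers summed to 7.12 to 9.12 CPM in gas and 8.87 to 11.4 CPM in dCAMP with 2 at 0, and the 5 endothelial markers to 15.7 to 18.4 CPM in gas and 18.8 to 24.7 CPM in dCAMP with PECAM1 at 0. Their part in the results was not tested. In bulk RNA, fewer cells with a transcript and less of it per cell cannot be told apart.

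The 3 gas libraries differed from each other far more than the 3 dCAMP libraries did. Among the autophagy genes, the highest gas library exceeded the lowest by more than 2-fold in 7 genes (18.4%, against 24.7% of all genes tested), namely RB1CC1, ATG3, ATG4C, ATG5, ATG10, MAP1LC3B and TAX1BP1. In the dCAMP libraries 0 autophagy genes did so, against 5.87% of all genes, and the largest ratio was 1.32-fold. Gas 1 was the library farthest from the dCAMP mean in 32 of the 38 genes (84.2%, against 74.0% of all genes). In gas 1, 8 autophagy genes (21.1%, against 17.2% of all genes) lay more than 2-fold under the dCAMP mean, and in gas 2 and gas 3 there were 0 such genes. Gas 3 lay close to the dCAMP libraries, with a median log2 ratio to the dCAMP mean of -0.09 over the 38 genes, compared with -0.13 in gas 2 and -0.22 in gas 1. Values without gas 1 or without gas 3 are therefore given for most of the genes described in detail.

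**Figure D1:**
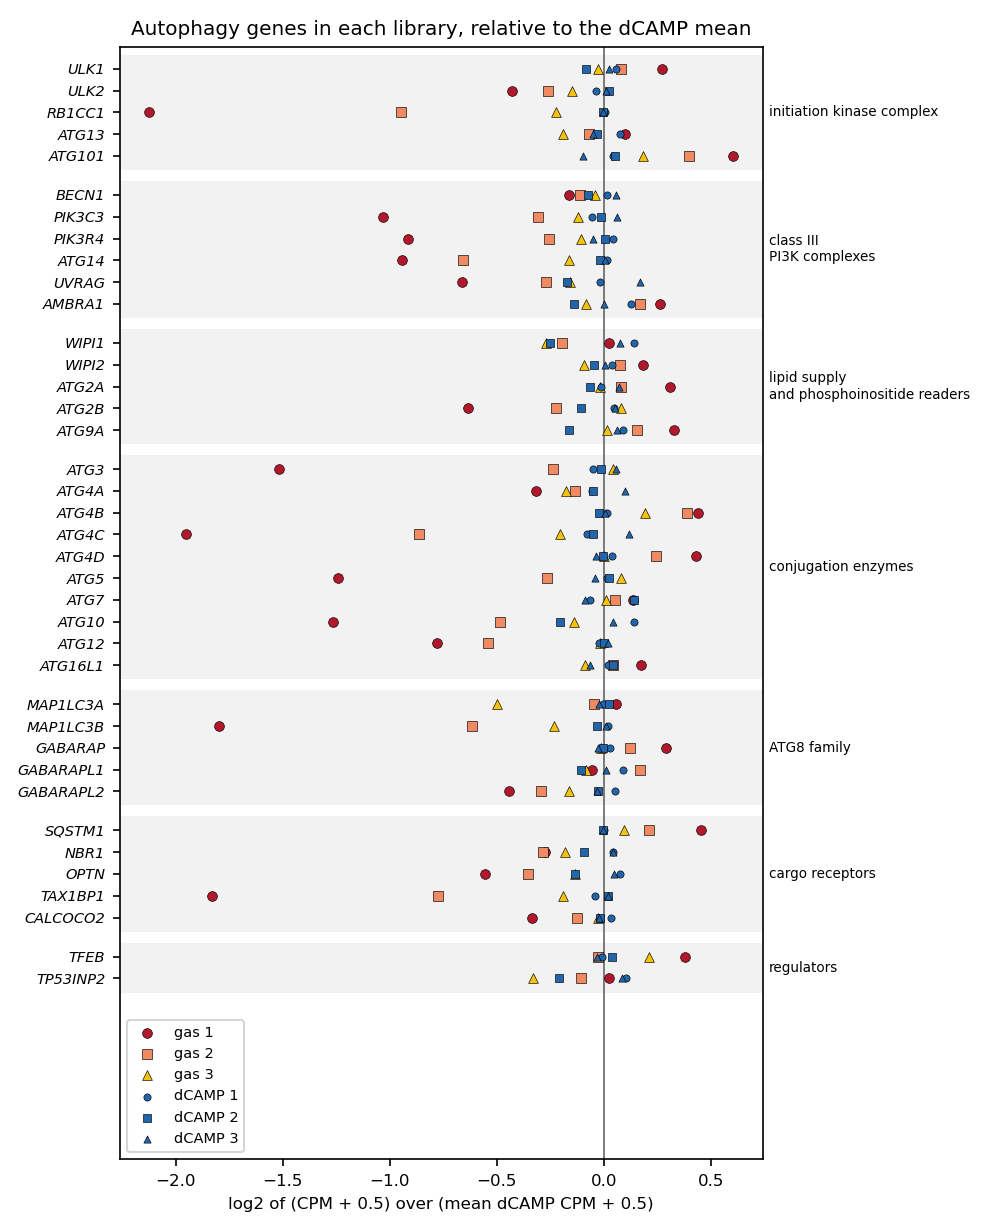
Level of the 38 autophagy genes in each library, as the log2 of CPM plus 0.5 over the mean dCAMP CPM plus 0.5 (horizontal axis), with genes grouped by role (vertical axis) and 1 point per library. The dCAMP points (blue) cluster at 0, while gas 1 (red circles) is the most distant library in 32 of 38 genes and reaches a log2 ratio of -2.13 for RB1CC1.

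With edgeR's quasi-likelihood test and Benjamini-Hochberg adjustment over all genes tested, 0 of the 38 autophagy genes had an adjusted p under 0.05 (0% of all genes), and their adjusted p-values ranged from 0.221 to 0.935. DESeq2 and limma on log2 FPKM also gave 0. Limma's voom with sample quality weights gave 18 higher genes (32.6% of all genes) and 5 lower genes (28.2% of all genes), in a fit that weighted gas 2 at 6.74, gas 1 at 0.115 and gas 3 at 0.192. At an unadjusted p under 0.05, 5 autophagy genes were higher in dCAMP, compared with 6.81% of all genes tested. These were the initiation kinase ULK2, the lipid kinase adaptor ATG14, the ATG8 protein GABARAPL2 and the receptors NBR1 and OPTN. At the same level, 3 autophagy genes were lower, compared with 13.9% of all genes: the initiation subunit ATG101, the protease ATG4B and the receptor SQSTM1. By the rule of a 2-fold difference together with that p, 0 autophagy genes qualified, against 1.09% of all genes. The fold change was positive in 24 and negative in 14 of the 38, compared with 7703 positive and 7005 negative over all genes tested. Its median was 0.15 on the log2 scale, compared with 0.03 over all genes tested. For 29 of the 38 genes (76.3%, against 68.6% of all genes) the 95% interval of the fold change lay wholly within 2-fold in either direction.

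All 3 dCAMP libraries lay above all 3 gas libraries in 12 autophagy genes, where 19.0% of all genes tested did so. These were ULK2 and RB1CC1 of the initiation complex, PIK3C3, PIK3R4 and ATG14 of the lipid kinase complexes, the proteases ATG4A and ATG4C, the ATG8 proteins MAP1LC3B and GABARAPL2, and the receptors NBR1, TAX1BP1 and CALCOCO2. The opposite order was found in 3 genes, ATG101, ATG4B and SQSTM1, where 20.9% of all genes showed it.

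**Figure D2:**
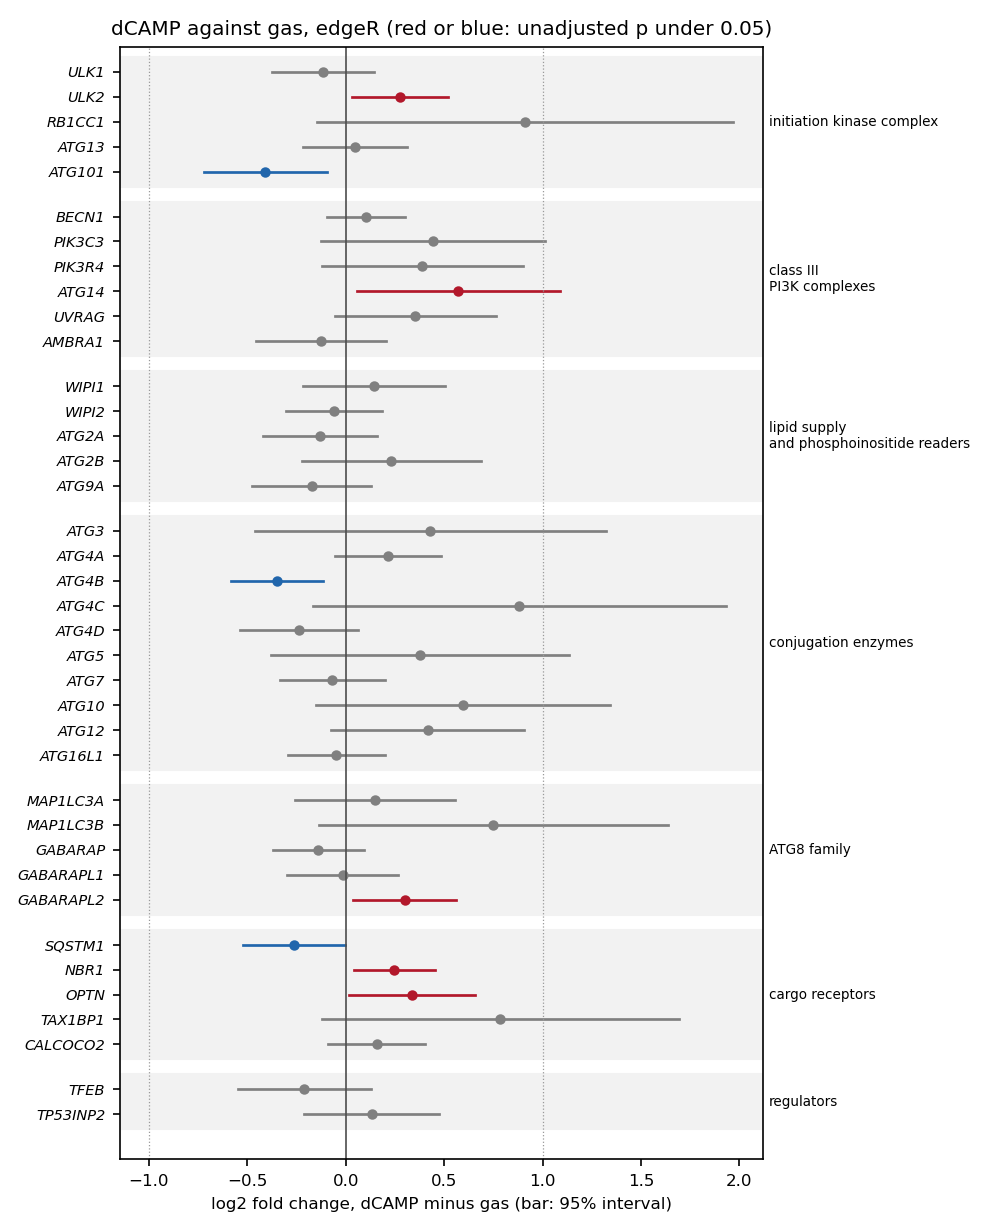
Log2 fold change of the 38 autophagy genes, dCAMP minus gas (horizontal axis), by role (vertical axis); points are edgeR estimates, bars are 95% intervals and dotted lines mark 2-fold. Red and blue mark the 5 higher and 3 lower genes with an unadjusted p under 0.05, and the widest intervals belong to RB1CC1 and ATG4C.

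The initiation complex held genes at both ends of the list. ULK1 and ULK2 are the kinases, RB1CC1 (also FIP200) is the scaffold, and ATG13 and ATG101 are the bridging subunits. ULK2 (chromosome 5, 40355070 to 40437758 in CanFam3.1) was present at 64.5, 72.5 and 78.6 CPM in gas 1, 2 and 3 and at 85.0, 88.6 and 87.7 CPM in dCAMP 1, 2 and 3. The groups did not overlap, and the fold change was 0.28 ± 0.10 (SE, log2) with an unadjusted p of 0.031 and an adjusted p of 0.226 in edgeR's test. Once the trend of the counts with gene length was removed in each library, the log2 fold change of ULK2 was 0.07, with an adjusted p of 0.576 in edgeR. Without gas 1 the ULK2 value was 0.19. ATG101 (chromosome 27, 2931595 to 2934914) had 90.6, 78.4 and 67.5 CPM in gas and 61.1, 61.5 and 55.4 CPM in dCAMP. Here every dCAMP library was below every gas library, by 0.41 ± 0.13 on the log2 scale (a fold of 0.753), with an unadjusted p of 0.018 and an adjusted p of 0.221 in the same edgeR test. The log2 fold change of ATG101 was -0.32 without gas 1.

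RB1CC1 had the largest estimated difference of the list and the widest gas spread. Its level was 15.3, 35.3 and 58.6 CPM in the gas libraries and 68.9, 68.5 and 68.4 CPM in the dCAMP libraries. The dCAMP values were nearly equal and lay above every gas value, but the gas values spanned 3.82-fold. The fold change was 0.91 ± 0.44 (SE, log2; 95% interval -0.14 to 1.97), with an unadjusted p of 0.080 in edgeR. Without gas 3 it was 1.39 with an adjusted p of 0.034 in edgeR. In that fit 15.0% of all genes were higher with an adjusted p under 0.05. Without gas 1 the fold change of RB1CC1 was 0.53 with an adjusted p of 0.214 in edgeR. For ULK1 the interval was -0.38 to 0.15 and for ATG13 it was -0.22 to 0.31, and the groups overlapped in both genes. The fold changes of the kinases had opposite signs, and the ratio of ULK1 to ULK2 in FPKM (the deposited level per transcript length) was 1.48, 1.14 and 0.971 in gas 1, 2 and 3 and 0.954, 0.829 and 0.911 in dCAMP 1, 2 and 3. The dCAMP ratios were lower than every gas ratio, though gas 3 and dCAMP 1 were close.

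Among the class III phosphatidylinositol 3-kinase genes, 5 of 6 fold changes were positive, where 7703 of all 14708 genes tested were. Their median was 0.37 on the log2 scale. The median was 0.18 without gas 1 and 0.23 with the length trend removed, beside 0.01 and -0.04 for all genes. PIK3C3 (VPS34) is the catalytic subunit and PIK3R4 (VPS15) its regulatory partner. BECN1 is the shared subunit, ATG14 directs the complex to autophagosome formation, UVRAG takes the place of ATG14 in an endosomal complex, and AMBRA1 is a BECN1-binding regulator. ATG14 (chromosome 8, 31199097 to 31234200) was at 7.30, 9.02 and 12.9 CPM in gas and at 14.7, 14.3 and 14.6 CPM in dCAMP. Its fold change of 0.57 ± 0.21 (SE, log2; 0.39 without gas 1) had an unadjusted p of 0.035 and an adjusted p of 0.230 in edgeR's test, with no overlap between the groups. PIK3C3 had 18.9, 31.5 and 36.0 CPM in gas and 37.7, 38.8 and 40.9 CPM in dCAMP, and PIK3R4 had 24.9, 39.5 and 44.0 CPM in gas and 48.8, 47.5 and 45.7 CPM in dCAMP. In both genes gas 1 stood well below the other 5 libraries, and their log2 fold changes of 0.44 and 0.39 dropped to 0.20 and 0.16 without gas 1. The subunit common to the complexes, BECN1, was the most abundant of the set at 46.4 ± 1.76 FPKM in gas and 49.8 ± 1.98 FPKM in dCAMP (SD, n = 3), and its interval was narrow (-0.09 to 0.30). UVRAG, at 0.35 (0.20 without gas 1), and AMBRA1, at -0.13, overlapped between the groups.

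The genes for lipid supply and phosphoinositide reading held 0 genes with an unadjusted p under 0.05 in either direction. WIPI1 and WIPI2 bind phosphatidylinositol 3-phosphate, ATG2A and ATG2B transfer lipid, and ATG9A is the membrane-spanning scramblase of the pathway. Their log2 fold changes lay between -0.17 for ATG9A and 0.23 for ATG2B, and the groups overlapped in all 5. ATG2B was the only one of the 5 with a clearly low gas library, with 35.5 CPM in gas 1 compared with 47.5 to 58.7 CPM in the other 5 libraries. The fold change of ATG2B was 0.05 without gas 1 and -0.03 once the trend with gene length was removed. All 5 intervals excluded a 2-fold difference.

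Conjugation genes separated into a group that was low in gas 1 and a group that was not. In this step ATG7 activates the ubiquitin-like proteins, ATG10 and ATG3 pass them on, ATG12 is joined to ATG5, and ATG16L1 places the conjugate on the membrane. ATG3 was at 38.3, 93.6 and 114 CPM in gas and at 107, 110 and 115 CPM in dCAMP. ATG5 was at 33.8, 67.1 and 85.3 CPM in gas and at 81.4, 82.2 and 78.4 CPM in dCAMP. For both genes gas 3 was within or above the dCAMP range, so the groups overlapped, and the log2 fold changes of 0.43 and 0.38 were 0.07 and 0.07 without gas 1. ATG10, with 3.05, 5.58 and 7.24 CPM in gas and 8.89, 6.91 and 8.28 CPM in dCAMP, gave 0.60 ± 0.31 (SE, log2), and ATG12 gave 0.42 ± 0.20. Without gas 1 the log2 fold change of ATG10 was 0.31 and that of ATG12 was 0.24. ATG12 in gas 3 (37.6 CPM) already lay at the dCAMP level of 38.1 ± 0.54 CPM (SD, n = 3), whereas gas 1 and gas 2 were at 21.9 and 26.0 CPM. ATG7 and ATG16L1 showed no such spread, with log2 fold changes of -0.07 and -0.05 and intervals of -0.34 to 0.20 and -0.29 to 0.20. The ratio of ATG5 to its partner ATG16L1 in FPKM was 0.531, 1.16 and 1.63 in gas 1, 2 and 3 and 1.42 to 1.46 in dCAMP, so that the dCAMP values fell inside the gas range.

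The 4 ATG4 proteases, which trim ATG8 proteins before conjugation and release them afterwards, had fold changes of both signs. ATG4B, the most active of them toward LC3, is at chromosome 25, 51494316 to 51518683. Its level was 85.4, 82.4 and 71.9 CPM in gas and 63.4, 61.9 and 63.0 CPM in dCAMP. The dCAMP libraries were tightly grouped below the lowest gas library, the log2 fold change was -0.35 ± 0.10 (SE; -0.32 without gas 1), and the unadjusted p of 0.010 was the smallest of the 38 genes (adjusted p of 0.221, edgeR). ATG4C had 2.83, 6.59 and 10.7 CPM in gas and 11.7, 11.9 and 13.5 CPM in dCAMP, a log2 difference of 0.88 ± 0.43 with an adjusted p of 0.271 in edgeR. The gas libraries of ATG4C spanned 3.78-fold, with gas 1 lowest. Omitting gas 1 gave ATG4C a log2 difference of 0.50, and omitting gas 3 gave 1.34 (adjusted p of 0.038, edgeR). With gas 3 omitted, 15.0% of all genes were higher with an adjusted p under 0.05. ATG4A gave 0.22 ± 0.11 without overlap and ATG4D gave -0.24 ± 0.12 with overlap (SE, log2). The ATG4D value was -0.15 without gas 1 and -0.39 without gas 3.

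Within the ATG8 family, whose members are attached to the autophagosome membrane, MAP1LC3B and GABARAPL2 were above gas in all 3 dCAMP libraries. MAP1LC3B encodes LC3B, the usual protein marker of autophagosomes, and lies at chromosome 5, 65669553 to 65683445. It was measured at 25.1, 57.7 and 75.4 CPM in gas and at 89.8, 86.8 and 89.4 CPM in dCAMP. The fold change of 0.75 ± 0.37 (SE, log2; 95% interval -0.14 to 1.64) had an adjusted p of 0.270 in edgeR, and it was 0.40 without gas 1 and 1.06 without gas 3. GABARAPL2 (chromosome 5, 75230214 to 75240724) was at 28.6, 31.8 and 34.8 CPM in gas and 40.5, 38.3 and 38.2 CPM in dCAMP, which gave 0.30 ± 0.11 (SE, log2) with an unadjusted p of 0.031 and an adjusted p of 0.226 in edgeR. Leaving out any 1 library kept the log2 fold change of GABARAPL2 between 0.21 and 0.32, and its locus overlaps another gene. MAP1LC3A, GABARAP and GABARAPL1 overlapped between the groups, with log2 fold changes of 0.15, -0.14 and -0.02.

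Per length, the family was dominated by GABARAP, the most abundant autophagy gene in both groups, at 260 ± 32.7 FPKM in gas and 235 ± 3.77 FPKM in dCAMP (SD, n = 3). GABARAP made up 82.5%, 76.5% and 73.6% of the summed FPKM of the family in gas 1, 2 and 3 and 70.5% to 71.3% in dCAMP. The share of MAP1LC3B was 2.98%, 7.15% and 9.87% in gas 1, 2 and 3 and 10.9% to 11.3% in dCAMP. The family's summed FPKM was 335 ± 22.5 in gas and 332 ± 4.92 in dCAMP (SD, n = 3), a difference smaller than the gas spread.

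**Figure D3:**
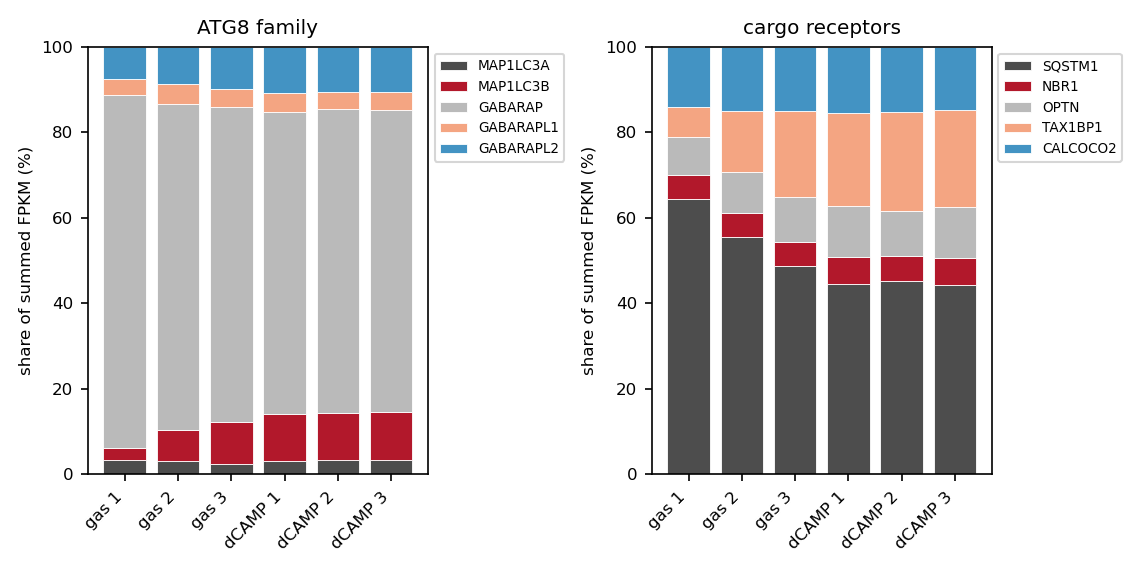
Share of the summed FPKM (vertical axis, percent) held by each gene of the ATG8 family (left) and of the cargo receptors (right), with 1 stacked bar per library. GABARAP and SQSTM1 hold the largest shares in every library, and the shares of MAP1LC3B and TAX1BP1 are lowest in gas 1, at 2.98% and 7.09%.

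Of the 5 cargo receptors, 2 were higher (6.81% of all genes) and 1 was lower (13.9% of all genes) at an unadjusted p under 0.05. SQSTM1 (p62; chromosome 11, 1859776 to 1869289) carries ubiquitinated cargo and is itself degraded by autophagy. Its transcript was at 309, 261 and 241 CPM in gas and at 226, 225 and 225 CPM in dCAMP. The dCAMP libraries were nearly identical (225 ± 0.49 CPM, SD, n = 3) and lay below all gas libraries, with a log2 fold change of -0.26 ± 0.11 (SE; -0.17 without gas 1), an unadjusted p of 0.048 and an adjusted p of 0.240 in edgeR. NBR1, a receptor related to SQSTM1, had 83.3, 82.6 and 88.8 CPM in gas and 104, 94.6 and 104 CPM in dCAMP. Its 3 gas libraries lay closer together than those of any other of the 38 genes (1.07-fold from lowest to highest), and its log2 fold change of 0.25 ± 0.09 (SE) had an unadjusted p of 0.026 and an adjusted p of 0.224 in edgeR. With the length trend removed, the log2 fold change of NBR1 was 0.07, with an adjusted p of 0.637 in edgeR. The locus of NBR1 (chromosome 9, 19926885 to 19959552) overlaps a neighbouring gene, as do those of GABARAPL2, PIK3C3, ATG4A, ATG4C and CALCOCO2 among the genes with separate groups, and how reads in such overlaps were counted is not given in the sources used here.

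OPTN, a receptor for damaged mitochondria and bacteria, had 73.0, 84.0 and 98.0 CPM in gas and 113, 98.0 and 111 CPM in dCAMP. Gas 3 and dCAMP 2 coincided, so the groups met, and the log2 fold change was 0.34 ± 0.13 (SE; 0.22 without gas 1) with an unadjusted p of 0.041 and an adjusted p of 0.237 in edgeR. TAX1BP1, a receptor for aggregates and pathogens, had 78.9, 165 and 247 CPM in gas and 274, 286 and 286 CPM in dCAMP. Each dCAMP library exceeded each gas library, but the gas libraries spanned 3.13-fold, and the log2 fold change was 0.79 ± 0.38 (SE) with an adjusted p of 0.264 in edgeR. Without gas 3 the TAX1BP1 value was 1.17 with an adjusted p of 0.037 in edgeR. In that fit 15.0% of all genes were higher with an adjusted p under 0.05. Without gas 1 the TAX1BP1 value was 0.44 with an adjusted p of 0.211 in edgeR. CALCOCO2 (NDP52), a receptor for pathogens and mitochondria, gave 0.16 ± 0.10 (SE, log2), and 0.06 without gas 1. SQSTM1 made up 64.3%, 55.6% and 48.7% of the receptors' summed FPKM in gas 1, 2 and 3 and 44.3% to 45.2% in dCAMP. The ratio of TAX1BP1 to SQSTM1 in FPKM was 0.11, 0.254 and 0.410 in gas 1, 2 and 3 and 0.489 to 0.513 in dCAMP.

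TFEB, a transcription factor for lysosomal and autophagy genes, and TP53INP2, a nuclear protein that brings ATG8 proteins to the autophagosome, overlapped between the groups. TFEB was at 8.71, 6.46 and 7.71 CPM in gas and 6.54, 6.77 and 6.44 CPM in dCAMP (-0.21 ± 0.14, SE, log2; -0.12 without gas 1). TP53INP2 was at 32.5 to 41.7 CPM in gas and at 35.3 to 44.1 CPM in dCAMP, and its fold change of 0.13 was -0.01 without gas 3. TFEB had the lowest level per length of the 38 genes in dCAMP, at 2.33 ± 0.05 FPKM (SD, n = 3).

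**Figure D4:**
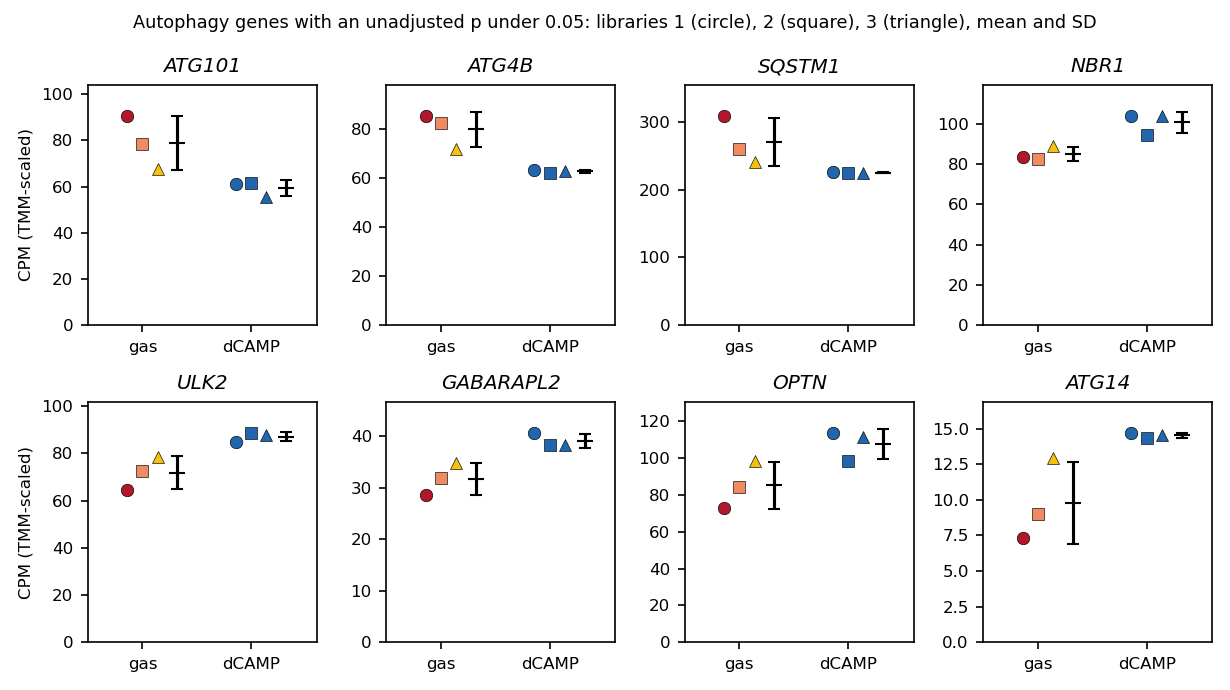
TMM-scaled CPM (vertical axes, from 0) of the 8 autophagy genes with an unadjusted p under 0.05, with 1 point per library (gas in red to yellow, dCAMP in blue; circle, square and triangle for libraries 1, 2 and 3) and the mean with its SD beside each group. The groups are separate in 7 of the panels and meet in OPTN, where gas 3 and dCAMP 2 are both at 98.0 CPM.

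Leaving out gas 3 was the one removal of a library that gave autophagy genes an adjusted p under 0.05. In that fit 8 genes were higher in dCAMP (15.0% of all genes tested): ULK2, RB1CC1, ATG14, ATG4C, ATG12, GABARAPL2, OPTN and TAX1BP1. Another 4 genes were lower (18.1% of all genes): ATG101, ATG4B, ATG4D and SQSTM1. Their log2 fold changes ran from 0.30 for ULK2 to 1.39 for RB1CC1 and from -0.39 to -0.56. With gas 1 left out, 0 genes had an adjusted p under 0.05 in edgeR, the smallest adjusted p being 0.201, and 8 higher genes (8.75% of all genes) and 2 lower genes (11.8% of all genes) had an unadjusted p under 0.05. The median log2 fold change of the 38 genes was 0.14 without gas 3, beside -0.03 for all genes, and 0.09 without gas 1, beside 0.01 for all genes.

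**Figure D5:**
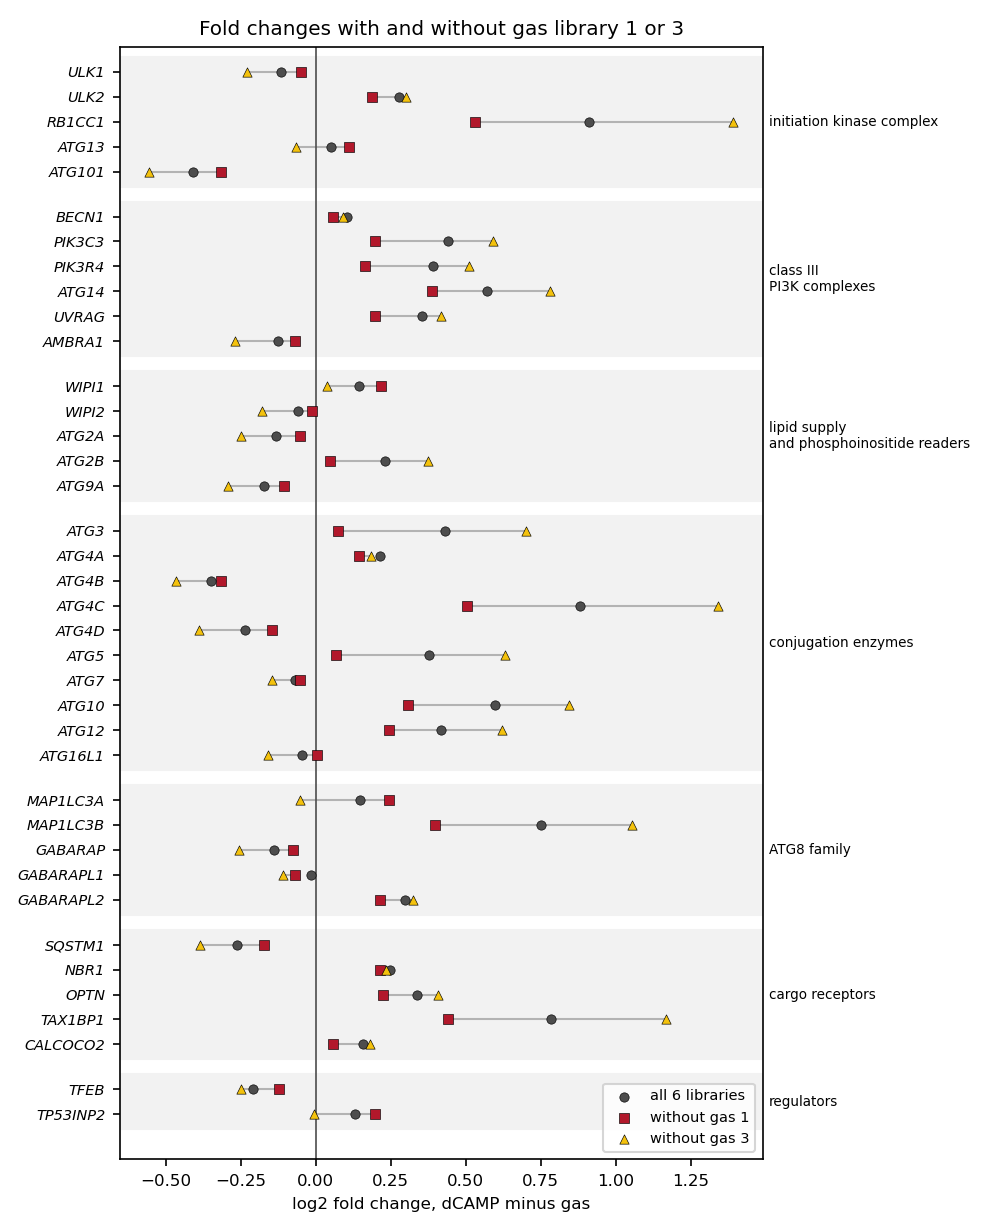
Log2 fold change, dCAMP minus gas (horizontal axis), of each autophagy gene (vertical axis, by role) with all 6 libraries (grey circles), without gas 1 (red squares) and without gas 3 (yellow triangles). RB1CC1 moves from 0.53 without gas 1 to 1.39 without gas 3, while NBR1 lies at 0.22 and 0.23.

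The median level of the autophagy genes per length was 13.0 FPKM in dCAMP, compared with 7.13 FPKM over all genes tested, and 29 of the 38 were above that value. After GABARAP came SQSTM1 at 144 ± 0.43 FPKM, ATG3 at 79.8 ± 3.33 FPKM and TAX1BP1 at 72.8 ± 2.17 FPKM in dCAMP (SD, n = 3). In gas the third place was held by ATG101 at 61.7 ± 10.2 FPKM, which did not differ from ATG3 at 58.9 ± 27.5 FPKM beyond their spread (SD, n = 3). At the low end of the gas order stood ATG14, at 2.06 FPKM.

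The transcript table listed 170 annotated transcripts for the 38 genes, with a single transcript for 6 of them. Of the other 32, 21 had the same leading transcript in all 6 libraries. SQSTM1 was one of these, with a transcript of 1352 bases that held 71.0% of the gene's FPKM in gas 1 and 93.1% to 94.6% in the other libraries. A longer SQSTM1 transcript of 1821 bases held 25.3% in gas 1 and 2.04% to 3.69% elsewhere. For ATG4B, a short transcript of 1322 bases held 18.8%, 23.2% and 33.5% in gas 1, 2 and 3 and 40.8%, 35.9% and 30.4% in dCAMP 1, 2 and 3, so that the groups overlapped. For ULK1 the leading transcript changed between libraries, one of 4556 bases taking from 12.4% to 83.0%. No test was made on these shares, and the division of reads between transcripts that share exons is an estimate.

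The wider pathway was read from 116 further genes, of which 111 were in the table and 110 were tested. In edgeR 11 were higher and 13 lower at an unadjusted p under 0.05 (6.81% and 13.9% of all genes), the level used for every higher or lower gene of these lists, and 0 had an adjusted p under 0.05, with a median log2 fold change of 0.003. Among 8 tested genes of other core machinery, the lipid scramblases of the endoplasmic reticulum VMP1 and TMEM41B were higher and ATG16L2 (-0.61) was lower. The log2 fold change of VMP1 was 0.61, or 0.39 without gas 1. That of TMEM41B was 1.07, or 0.75 without gas 1 and 1.65 without gas 3. TMEM41B was at 7.71, 11.8 and 25.7 CPM in gas and at 26.9, 33.6 and 34.5 CPM in dCAMP, without overlap. Of 14 genes of autophagosome-lysosome fusion, 0 were higher and 1 was lower, the tethering subunit VPS18 (-0.34). Receptors for organelles comprised 22 genes, of which 3 were higher and 3 lower. The mitophagy receptor BNIP3L was at 68.5, 93.2 and 158 CPM in gas and 190, 194 and 201 CPM in dCAMP. BNIP3L gave 0.87 ± 0.29 (SE, log2; 0.62 without gas 1), and the ferritin receptor NCOA4 gave 0.34. The inner mitochondrial membrane receptor PHB2 gave -0.48 ± 0.12 (SE, log2) with an unadjusted p of 0.0058 and an adjusted p of 0.221 in edgeR, and the ubiquitin-binding TOLLIP gave -0.32.

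Of 28 lysosomal genes, 2 were higher (6.81% of all genes) and 2 lower (13.9% of all genes). The membrane protein SCARB2 (0.45, or 0.27 without gas 1) and the proton pump subunit ATP6V1H (0.42, or 0.23 without gas 1) were higher, and the glycosidases NEU1 and GAA (both -0.26) were lower. Control of mTORC1 and AMPK, the nutrient kinases upstream of ULK1, held 4 higher and 5 lower genes of 34, beside the same shares of all genes. The genes with the smallest p there were FNIP2, a folliculin partner, at 0.55 ± 0.15, AKT1S1, an mTORC1 inhibitor, at -0.42 ± 0.12, DDIT4, a stress-induced inhibitor of mTORC1, at -0.55 ± 0.16, and STK11, the AMPK-activating kinase, at -0.39 ± 0.13 (SE, log2). DDIT4 was at 131, 118 and 102 CPM in gas and at 84.3, 64.6 and 90.4 CPM in dCAMP, so its groups did not overlap. The remaining higher genes of this list were the sestrins SESN3 (1.07, or 0.75 without gas 1) and SESN1 (0.66, or 0.43 without gas 1), and RRAGD (0.75, or 0.48 without gas 1). The remaining lower genes were RPTOR (-0.33, or -0.24 without gas 1) and NPRL3 (-0.28, or -0.27 without gas 1). Of the relatives of TFEB, TFE3 was at 66.1, 61.7 and 53.2 CPM in gas and 52.7, 48.2 and 48.7 CPM in dCAMP (-0.27, unadjusted p of 0.049, edgeR). MITF was at 4.99, 5.28 and 8.39 CPM in gas and 8.89, 8.19 and 8.94 CPM in dCAMP, with gas 3 inside the dCAMP range and a log2 fold change of 0.48.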

How the data were processed

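RNA-seq was carried out on 3 gas-treated and 3 dCAMP-treated libraries of CPEK cells. According to the submitters' processing notes and the methods, reads were checked with FastQC 0.11.7, trimmed with Trimmomatic 0.38, mapped to CanFam3.1 with HISAT2 2.1.0 and summarized over known transcripts with StringTie 2.1.3b. The authors deposited raw read counts for genes and for transcripts, as whole numbers. Each deposited FPKM value is relative to transcript length and to the mapped reads of its library. The tables also hold 6 TPM columns each, which were left aside. The kit was stranded, and whether counting used the strand is not given in the sources used here; 14 of the 38 loci overlap another gene. Coordinates were taken from the deposited transcript table.

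Counts were analysed in R 4.3.3 with edgeR 4.0.16: TMM factors, filterByExpr, a prior count of 2, the quasi-likelihood test and Benjamini-Hochberg adjustment over 14708 genes. SEs and 95% intervals were derived from the fold change and the F statistic. In data simulated for dCAMP against gas (14532 genes, dispersion 0.02), edgeR recovered 100% of 200 genes changed 3-fold, with 8 false calls. The simulation gave every gene and library the same dispersion, without the spread seen between the real gas libraries. Its fold was also larger than the 1.88-fold of RB1CC1, the largest of the autophagy genes. It therefore does not measure the power of the test in these data. Lists were described by counts and medians only. The alternatives used DESeq2 1.42.0, limma 3.58.1 (voom with sample quality weights, and log2 of FPKM plus 1), RLE factors, no filter, a minimum of 10 counts in all libraries, a replicate block, removal of the trend with gene length (lowess span 0.3) without and with the block, and omission of each library. The autophagy genes, the pathway and marker lists and the rule for naming were chosen with earlier results of these data known. All 38 members are named, and up to 4 genes of each further list by smallest p, with TFE3 and MITF. Of the mTORC1 and AMPK list, every gene with an unadjusted p under 0.05 in edgeR is named. The pathway genes WDR45B, YKT6, PLEKHM1, CTSL and ZKSCAN3 were not analysed here, nor were sequences.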

Additional observations from a re-analysis of the deposited data

How the results depend on the processing

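The number of autophagy genes with an adjusted p under 0.05 was 0 in the main comparison and 0 with DESeq2, RLE factors, either other filter, the block, log2 FPKM and the length correction. With voom and sample quality weights it was 23, of which 18 were higher (32.6% of all genes) and 5 lower (28.2% of all genes); gas 2 received a weight of 6.74 there, compared with 0.115 for gas 1 and 0.192 for gas 3. Over the fits without 1 library it ranged from 0 to 12. The 5 higher genes at an unadjusted p under 0.05 were 8 with DESeq2, 20 with voom, 9 with log2 FPKM, 3 with the length trend removed, and 0 to 14 over the fits without 1 library. The 3 lower genes were 6 with voom and 1 to 5 over those fits. By the 2-fold rule, the count of 0 was 2 with the replicate block (RB1CC1 and ATG4C), 1 with the length correction and the block, and 0 to 4 without 1 library. The counts at an unadjusted p and by the 2-fold rule stand here without the shares of all genes in the same fits. They describe the dependence on the fit and are no result about the autophagy genes. The median log2 fold change of 0.15 was 0.078 with the length trend removed, 0.078 with the block as well, and 0.09 to 0.20 without 1 library. On deposited FPKM and on CPM of the total count, both chosen after seeing the data, 15 genes (19.9% of all genes) and 15 genes (21.3%) were above gas in all dCAMP libraries, and 4 (19.2%) and 3 (18.3%) below. The causes of these shifts were not tested.

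The sign of the fold change was the same under every alternative for 31 of the 38 genes. The length correction turned ATG13 to -0.13, ATG2B to -0.031, GABARAPL1 to 0.0057 and TP53INP2 to -0.067, and with the block to -0.11, -0.028, 0.0074 and -0.050. Voom turned TFEB to 0.0080. Over the fits without 1 library, ATG13 ranged from -0.065 to 0.11, MAP1LC3A from -0.053 to 0.24, TP53INP2 from -0.0064 to 0.20, ATG16L1 from -0.16 to 0.0024 and GABARAPL1 from -0.11 to 0.041.

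The replicate numbers do not pair the libraries by the labels. The deviations of same-numbered libraries correlated at 0.252, 0.0656 and 0.103, and those of differently numbered libraries at -0.272 to 0.164. Gas 1 and gas 2 each correlated best with the dCAMP library of the same number, and gas 3 with dCAMP 2 (0.164). With the replicate block 4 autophagy genes were higher and 2 lower at an unadjusted p under 0.05, and 0 had an adjusted p under 0.05 in edgeR. The shares of all genes in the block fit are not given here, so these counts are no result about the autophagy genes. With 3 libraries in a group and a gas spread of up to 3.82-fold, the 95% interval reached a 2-fold difference for 9 of the 38 genes. A 2-fold difference was not excluded for these at this replication.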
